A study of Mus musculus with 12 samples.

Results

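Diabetic kidneys without D6 were compared with fully healthy kidneys, that is, 3 OVE-D6 arrays with 3 FVB arrays, to ask which differences from healthy tissue were present in the diabetic knockout. The arrays were taken by their labelled group, and these were 6 of the 12 arrays in the series. OVE-D6 mice carried the OVE26 transgene, which makes them diabetic, and both Ackr2 alleles were deleted (D6-/-). FVB mice had no diabetes and both D6 alleles (D6+/+). The other groups, with 3 arrays each, carried 1 factor alone: OVE mice were diabetic and D6+/+, and D6 mice were D6-/- without diabetes. All mice were on the FVB background and were kept to 6 months of age. The deletion came from a C57BL/6 line and was crossed to FVB for at least 10 generations, so OVE-D6 and FVB differed in diabetes, in D6 and in any donor sequence kept beside the deletion. Each array held RNA from 1 mouse. After filtering, 16480 of 19936 genes with a probe set of their own were tested.

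D6, the product of Ackr2, is an atypical chemokine receptor. It takes up inflammatory CC chemokines and degrades them without the usual G protein signal, and it is best known from lymphatic endothelium and other barrier tissues. OVE26 mice express a calmodulin transgene in pancreatic beta cells and become insulin deficient early in life, and the strain is used as a model of kidney disease in insulin-deficient diabetes. In the diabetic kidney the proximal tubule handles a high load of filtered glucose and uses much fatty acid, while tubular injury, macrophage entry and matrix deposition mark advancing disease.

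The deposited log2 values had array medians between 6.84 and 6.93. Kidney genes were high on the 6 compared arrays: the phosphate transporter gene Slc34a1 lay between 13.67 and 13.87, the loop gene Umod between 12.85 and 13.31 and the collecting duct water channel gene Aqp2 between 9.78 and 10.70. Xist, which is transcribed from the inactive X chromosome, lay between 12.53 and 12.87 on all 12 arrays, and the Y-linked genes Eif2s3y, Kdm5d and Uty between 3.55 and 5.33. Some arrays stood apart. On OVE-D6 replicate 3 the adrenal steroidogenic genes Cyp11b1, Star and Hsd3b1 had values of 9.93, 8.87 and 6.61. On OVE-D6 replicates 1 and 2 they had 5.33 and 5.55, 6.36 and 6.08, and 5.43 and 5.03. On the FVB arrays Cyp11b1 lay between 5.50 and 5.76. Of 7 tested adrenal markers, 4 were highest on OVE-D6 replicate 3 among the 12 arrays, while Th, Dbh and Nr5a1 had values there (6.27, 5.43 and 6.38) close to those on the other OVE-D6 arrays. FVB replicates 2 and 3 had Ucp1, the brown fat uncoupling protein gene, at 10.09 and 8.29 and Cidea at 7.18 and 6.57. FVB replicate 1 had 4.86 and 4.90 and the OVE-D6 arrays 4.91 to 5.55 and 4.95 to 5.88. Fat markers varied within both groups. The median of 11 tested fat markers, relative to the FVB means, was 0.57, -0.9 and 0.32 on OVE-D6 replicates 1, 2 and 3. On FVB replicates 1, 2 and 3 it was -1.0, 0.85 and 0.22. Some results are therefore also given without 1 of these arrays, or without OVE-D6 replicate 3 and FVB replicate 2 together. No fit left out both FVB replicates 2 and 3.

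In OVE-D6 against FVB, 94 genes passed an adjusted p of 0.05 in limma, a moderated linear model, which is 0.57% of those tested. Of them 54 were higher (0.328%) and 40 lower (0.243%) in OVE-D6, and 2123 genes (12.9%) had an unadjusted p under 0.05. The OVE-D6 and FVB values did not overlap for any of the 94, as was the case for 3439 genes in all (20.9%). A change of at least 2-fold was seen in 13 of the genes that rose and 5 of those that fell, and the smallest change called was 0.38 on the log2 scale. The same fit called 1200 genes in OVE against FVB (7.28%), 38 in OVE-D6 against OVE (0.231%), 47 in OVE-D6 against D6 (0.285%) and 2 in D6 against FVB (0.0121%). These comparisons share arrays with OVE-D6 against FVB, so their gene lists are not set against it. The 94 calls became 30 without OVE-D6 replicate 3, 49 without OVE-D6 replicate 1, 43, 50 and 47 without FVB replicate 1, 2 or 3, 147 without OVE replicate 3, and 19 without both OVE-D6 replicate 3 and FVB replicate 2. Of the 32 called genes that the rule for named genes picked, 17 passed whichever array was left out, and the other 15 were lost at least without OVE-D6 replicate 3.

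The largest rise was that of Serpina6, which encodes corticosteroid-binding globulin, the plasma carrier of glucocorticoids. Its log2 values were 10.72, 11.84 and 11.37 on the OVE-D6 arrays and 7.69, 6.41 and 7.12 on the FVB arrays, so that the lowest diabetic knockout lay far above the highest healthy mouse. The difference was 4.23 ± 0.59 on the log2 scale (SE, n = 3 per group), an 18.8-fold rise (adjusted p = 0.00642). In the groups with 1 factor, Serpina6 had 10.45, 7.65 and 7.91 on the OVE arrays and 8.03, 8.31 and 7.98 on the D6 arrays, so 1 OVE mouse came near the OVE-D6 range and no D6 mouse did. The difference between OVE-D6 and OVE was 2.64, which did not pass (adjusted p = 0.0893). Without OVE-D6 replicate 3, the array with adrenal genes, Serpina6 differed by 4.20 (adjusted p = 0.0394), and without both that array and FVB replicate 2 it no longer passed (adjusted p = 0.145). Among 13 tested genes of corticosteroid binding, metabolism and response it was the only one called, beside 0.57% of all genes. The list had a median of -0.04, beside -0.004 over all genes.

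The next largest rises were those of Cyp4a12b and Cyp4a12a. Cyp4a12b and Cyp4a12a, cytochrome P450 genes whose enzymes hydroxylate fatty acids such as arachidonic acid, are near-identical copies that can share probe signal, so they are uncertain as separate genes. Cyp4a12b had 10.68, 10.62 and 10.95 on the OVE-D6 arrays and 8.28, 9.19 and 8.05 on the FVB arrays. It rose by 2.25 ± 0.27 on the log2 scale, or 4.75-fold (adjusted p = 0.00344), and Cyp4a12a by 2.13 ± 0.29, or 4.38-fold (adjusted p = 0.00635). Cyp4a12b averaged 10.07 in OVE and 8.43 in D6, so both diabetic groups were high. In mouse kidney both genes are expressed more in males. On all 12 arrays Xist was high and the Y-linked genes were low, which is the pattern of female mice. Kap, the androgen-regulated kidney protein gene, had 11.81, 12.80 and 11.45 on the OVE-D6 arrays and 13.55, 12.91 and 13.29 on the FVB arrays, a difference of -1.23 that did not pass (adjusted p = 0.0687). Of 10 tested kidney genes expressed more in males, 6 had positive estimates, beside 8066 of all 16480 genes. Their median was 0.26, beside -0.004 over all genes, and -0.008 with the filter at the 50th percentile. Called among them were Cyp4a12a and Cyp4a12b, higher, and Slc22a30, lower, beside 0.57% of all genes. Bbox1, the last enzyme of carnitine synthesis, had 8.16, 7.37 and 7.81 on the OVE-D6 arrays and 6.15, 6.30 and 6.27 on the FVB arrays, a 2.91-fold rise (log2 1.54 ± 0.19, adjusted p = 0.00396). Acsf2, an acyl-CoA synthetase gene, rose 2.60-fold (log2 1.38 ± 0.12, adjusted p = 0.000239), with 9.78 to 10.15 on the OVE-D6 arrays and 8.49 to 8.83 on the FVB arrays.

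Of the PPAR alpha and fatty acid oxidation list, with 25 tested genes, 3 rose and none fell, beside 0.57% of all genes called. The list's median was 0.24, beside -0.004 over all genes, and 22 of its members had positive estimates. Acot1 and Acot2, acyl-CoA thioesterase genes of the cytosol and the mitochondrion, rose by 0.82 ± 0.15 and 0.53 ± 0.11 on the log2 scale. Acot1 had 8.39, 8.41 and 8.43 on the OVE-D6 arrays and 7.85, 7.35 and 7.57 on the FVB arrays. Creb3l3, a membrane-bound transcription factor of fasting lipid metabolism in liver, rose by 0.53 ± 0.09 (adjusted p = 0.0273). All 3 had OVE means (8.41, 11.07 and 6.91) close to their OVE-D6 means (8.41, 11.12 and 6.86), and none of them passed without OVE-D6 replicate 3 (adjusted p = 0.127, 0.208 and 0.123). Angptl4, an inhibitor of lipoprotein lipase, had 8.54, 8.21 and 8.89 on the OVE-D6 arrays and 7.28, 7.68 and 7.24 on the FVB arrays. Its difference of 1.14 ± 0.23 missed the threshold (adjusted p = 0.0505). Pdk4, a kinase that restrains glucose oxidation, differed by 0.92 ± 0.24 (adjusted p = 0.118).

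Genes of vitamin D and calcium handling changed in both directions. Cyp27b1, the renal enzyme that makes active vitamin D, had 8.32, 7.44 and 8.21 on the OVE-D6 arrays and 6.27, 6.31 and 6.39 on the FVB arrays. It rose 3.18-fold (log2 1.67 ± 0.23, adjusted p = 0.00655). Its means were 8.93 in OVE and 7.22 in D6, so OVE-D6 lay between the diabetic and the non-diabetic group that each shared 1 factor with it. Casr, the calcium-sensing receptor of the thick ascending limb, had 9.39, 9.58 and 9.33 on the OVE-D6 arrays and 10.42, 10.27 and 10.26 on the FVB arrays. It fell by 0.88 ± 0.09 on the log2 scale (adjusted p = 0.00111). The OVE mean was 9.44, as in OVE-D6, and the D6 mean 10.31, beside 10.32 in FVB, so the 4 groups split by diabetes. Cyp27b1 and Casr were the 2 called genes among 14 tested for vitamin D, calcium and phosphate, whose median was 0.22, beside 0.57% of all genes called.

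Other named genes also rose. Mtarc1, a molybdenum enzyme of the mitochondrial outer membrane, had 8.995, 8.315 and 8.205 on the OVE-D6 arrays and 6.899, 7.186 and 7.102 on the FVB arrays (log2 difference 1.44 ± 0.19, adjusted p = 0.00431). Aldh1a7, an aldehyde dehydrogenase gene, rose by 1.23 ± 0.16 and was the 1 called member of 21 tested NRF2 targets and conjugating enzymes (median 0.18), beside 0.57% of all genes called. Xpnpep2, a brush border aminopeptidase that cleaves peptides before proline, had 9.59, 9.48 and 9.54 on the OVE-D6 arrays and 8.36, 8.46 and 8.46 on the FVB arrays. It rose by 1.11 ± 0.09 (adjusted p = 0.000161), and the mice of each group lay close together. Slc38a3, a glutamine transporter that feeds renal ammonia production, averaged 11.08 ± 0.07 on the OVE-D6 arrays and 10.01 ± 0.16 on the FVB arrays (SD), without overlap, and it rose by 1.07 ± 0.11 (adjusted p = 0.00111). Pigz, which adds a mannose to GPI anchors, rose by 1.20 ± 0.14 (adjusted p = 0.00292). Clca3a1, a regulator of calcium-activated chloride channels, rose by 1.34 ± 0.22 (adjusted p = 0.0182), but did not pass without OVE-D6 replicate 2 or 3 or FVB replicate 1 or 3 (highest adjusted p = 0.0903). Slc2a5, the fructose transporter, rose by 0.60 ± 0.11 (adjusted p = 0.0293) as the only call among 22 tested genes of glucose, fructose and polyol handling (median 0.22), beside the same 0.57% of all genes, and was lost without OVE-D6 replicate 3 (adjusted p = 0.108).

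**Figure D1:**
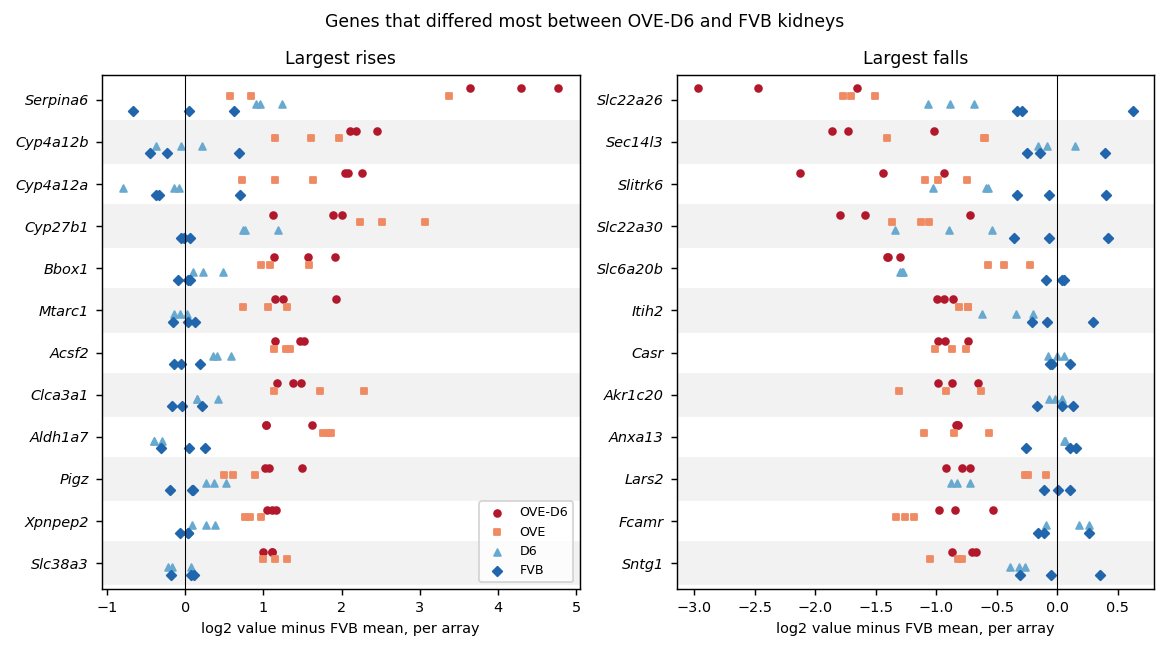
Log2 value of each array minus the gene's FVB mean, for the 12 named genes that rose most (left panel) and the 12 that fell most (right panel) in OVE-D6 against FVB, with the 3 arrays of OVE-D6, OVE, D6 and FVB as points in rows from top to bottom. Serpina6 stood furthest from healthy kidney, 4.23 above the FVB mean, and Slc22a26 lay furthest below it, at -2.36. The OVE-D6 and FVB points of a gene do not overlap because the rule took only such genes.

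The largest fall was that of Slc22a26, an organic anion transporter gene of the proximal tubule. It had 7.22, 8.03 and 6.72 on the OVE-D6 arrays and 10.31, 9.40 and 9.36 on the FVB arrays, a 5.15-fold fall (log2 -2.36 ± 0.30, adjusted p = 0.00422). Its means of 8.03 in OVE and 8.81 in D6 both lay between those of OVE-D6 and FVB. Slc22a30, a related gene, had 7.03, 7.89 and 6.82 on the OVE-D6 arrays and 9.04, 8.55 and 8.26 on the FVB arrays. It fell by 1.37 ± 0.27, just inside the threshold (adjusted p = 0.0495), and did not pass without OVE-D6 replicate 3 (adjusted p = 0.22). Members of this gene cluster are similar in sequence, so their probe sets may share signal. Abcb1a, a P-glycoprotein drug efflux pump, fell by 0.68 ± 0.13 (adjusted p = 0.0462), and these 3 were the calls among 22 tested organic ion and drug transporters, whose median was -0.04, beside 0.57% of all genes called. The Abcb1a call also ended without OVE-D6 replicate 3 (adjusted p = 0.203).

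Sec14l3, of a lipid-transfer protein family, had 6.31, 7.02 and 6.18 on the OVE-D6 arrays and 8.43, 7.79 and 7.90 on the FVB arrays (log2 difference -1.54 ± 0.25, adjusted p = 0.0199). Itih2, a hyaluronan-binding plasma protein chain, fell by 0.93 ± 0.13 (adjusted p = 0.0064). Anxa13, an epithelial annexin, had 6.27, 6.27 and 6.26 on the OVE-D6 arrays and 6.84, 7.25 and 7.20 on the FVB arrays, a fall of 0.83 ± 0.13 (adjusted p = 0.0149). The OVE mean of Anxa13 was 6.26 and its D6 mean 7.16, again a split by diabetes. Akr1c20, an aldo-keto reductase gene, fell by 0.84 ± 0.15, Fcamr, an Fc receptor for IgA and IgM, by 0.78 ± 0.14, and Sntg1, a syntrophin, by 0.75 ± 0.14. Slitrk6, a neuronal membrane protein gene, fell 2.83-fold (adjusted p = 0.0255). The OVE-D6 means of Slitrk6 and Sntg1, 5.26 and 5.22, were below a background level of 5.93, which 95% of 1027 olfactory receptor genes do not exceed, so their sizes are not exact. The same held for the lower of the 2 group means in 14 of the 94 genes. Of these genes, Itih2 alone passed without OVE-D6 replicate 3 (adjusted p = 0.027), and Akr1c20 came nearest of the rest (adjusted p = 0.0548).

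Markers of injury, inflammation and scarring were measured through 12 lists with 189 distinct tested genes. None passed in OVE-D6 against FVB, where 0.57% of all genes did, so the count by itself says little about these genes. At an unadjusted p under 0.05 there were 45 of the 189, 41 of them higher and 4 lower in OVE-D6, which is 23.8%, beside 12.9% of all genes. Their median difference was 0.19, beside -0.004 over all genes. In OVE against FVB the median of these genes was 0.73 and 102 were called, beside 7.28% of all genes. In OVE-D6 against OVE, 12 were called, beside 0.231% of all genes. The lists were chosen with earlier results of these data known, so these shares and medians are not independent support for a change. The matrix gene Col12a1, a fibril-associated collagen, came nearest to a call in OVE-D6 against FVB, with 8.19, 8.23 and 9.07 on the OVE-D6 arrays and 7.41, 7.58 and 7.30 on the FVB arrays (log2 difference 1.07 ± 0.22, adjusted p = 0.0518). It passed with each array centred on its median, with the filter at the 50th percentile and in 6 further alternatives.

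Tubular injury markers had a median difference of 0.32 over 19 tested genes, with 16 positive estimates and 7 members whose groups did not overlap, beside 20.9% of all genes. Lcn2, the neutrophil gelatinase-associated lipocalin secreted by injured tubules, had 7.08, 7.11 and 9.23 on the OVE-D6 arrays and 6.74, 6.94 and 6.54 on the FVB arrays. Only OVE-D6 replicate 3 was clearly high. The difference of 1.06 ± 0.53 had a 95% interval from -0.09 to 2.22 (adjusted p = 0.44), while Lcn2 had 10.23, 11.51 and 9.77 on the OVE arrays. Havcr1, the kidney injury molecule of the proximal tubule, showed the same order, with 7.54, 7.79 and 8.85 on the OVE-D6 arrays and 7.77, 7.42 and 7.24 on the FVB arrays. Its difference was 0.58 ± 0.35 (adjusted p = 0.541), and its OVE values were 8.96, 10.29 and 9.90. The array with the highest injury values in OVE-D6 was also the one with adrenal genes, and the part of that in these values was not tested. The injury list's median was 0.11, 0.26 and 0.58 above the FVB mean on OVE-D6 replicates 1, 2 and 3, and 0.07, 0.04 and -0.08 on the FVB arrays. Without OVE-D6 replicate 3 the median difference of the list was 0.13.

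Macrophage and monocyte markers had a median difference of 0.19 over 27 tested genes in OVE-D6 against FVB. The same list had medians of 1.305 in OVE against FVB, where 22 were called (7.28% of all genes), and -1.11 in OVE-D6 against OVE, where 6 were called (0.231% of all genes). In D6 against FVB, without diabetes, its median was 0.36, with none called (0.0121% of all genes), and in OVE-D6 against D6 it was -0.17. Lyz2, macrophage lysozyme, had 9.46, 9.51 and 9.89 on the OVE-D6 arrays and 9.08, 8.75 and 8.47 on the FVB arrays, a difference of 0.85 ± 0.34 (adjusted p = 0.311). Cd68, a phagocyte lysosomal protein gene, differed by 0.54 ± 0.24 (adjusted p = 0.365). Ccr2, the monocyte receptor for Ccl2, had 5.11, 5.28 and 5.26 on the OVE-D6 arrays and 6.29, 5.57 and 5.65 on the FVB arrays (difference -0.62 ± 0.26, adjusted p = 0.341), near the level of olfactory receptor genes. Ccr2 and Cx3cr1 of this list are also among the 70 tested genes beside Ackr2 on chromosome 9. Whether donor sequence there alters their signal was not tested. In whole-kidney RNA, fewer cells of a type and less RNA per cell cannot be told apart.

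D6 removes inflammatory CC chemokines from tissue, so the transcripts of its ligands were examined one by one. None of the 8 tested passed in OVE-D6 against FVB, where 0.57% of all genes did, so the count by itself says little. Their median was 0.26 in OVE-D6 against FVB and 0.26 in D6 against FVB, beside -0.004 and 0.004 over all genes. In OVE against FVB it was 0.77, beside -0.018 over all genes, and 5 were called there, beside 7.28% of all genes. Ccl2, the main monocyte attractant, had 6.50, 6.67 and 6.18 on the OVE-D6 arrays and 5.73, 6.02 and 5.90 on the FVB arrays. The groups did not overlap, and the difference was 0.57 ± 0.32 with a 95% interval from -0.13 to 1.27 (adjusted p = 0.514). The FVB mean of 5.88 was at background. Ccl5, a T cell and monocyte attractant, had 8.20, 8.21 and 7.60 on the OVE-D6 arrays and 7.57, 7.65 and 7.57 on the FVB arrays, a difference of 0.40 ± 0.27. Ccl7, Ccl17, Ccl11 and Ccl3 differed by 0.27, 0.26, 0.25 and 0.19, Ccl4 by 0.00 and Ccl22 by -0.19, with adjusted p between 0.462 and 0.994. The 95% intervals reached up to 0.99 for Ccl5 and 0.76 for Ccl17, so with 3 arrays per group rises up to those sizes were not excluded. Other chemokines had a median of 0.13 over 17 genes. The interferon-induced Cxcl10 had 7.68, 7.32 and 7.37 on the OVE-D6 arrays and 6.58, 6.60 and 6.32 on the FVB arrays, a difference of 0.96 ± 0.35 (adjusted p = 0.271). Ppbp, a platelet chemokine, had a difference of -1.43 ± 0.51 (adjusted p = 0.256).

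The remaining lists of this kind had no called member either, beside 0.57% of all genes called. They do not hold every gene of their kind. Masp1, a complement protease gene that is not on the complement list, was called higher (difference 0.93, adjusted p = 0.0321). The median was 0.22 over 29 extracellular matrix genes, 0.09 over 15 myofibroblast and TGF-beta genes and 0.43 over 19 cell cycle genes. For the cell cycle list, 18 estimates were positive and 16 members had groups that did not overlap, beside 20.9% of all genes. Its median was 0.28 in D6 against FVB and 0.70 in OVE against FVB. Mki67, a proliferation marker, had 6.74, 6.89 and 7.68 on the OVE-D6 arrays and 6.54, 6.54 and 6.15 on the FVB arrays, and Ccna2, cyclin A, had 7.01, 7.48 and 8.08 on the OVE-D6 arrays and 6.70, 6.96 and 6.68 on the FVB arrays. Their differences of 0.69 and 0.74 had adjusted p of 0.274 and 0.221. Fn1, fibronectin, differed by 0.69 ± 0.24 (adjusted p = 0.238) and Col1a1, the main fibrillar collagen chain, by 0.22 ± 0.28. Without OVE-D6 replicate 3, which was highest for all 4 of these genes, the Col1a1 difference was -0.04. MHC class II genes, 6 in all, had a median of 0.19, beside 0.65 in D6 against FVB and 1.02 in OVE against FVB. In OVE-D6 against FVB the median was 0.14 for 12 complement genes and 0.08 for 15 interferon-induced genes. It was 0.06 for 10 acute-phase genes and 0.05 for 12 lymphocyte markers. Jchain, the immunoglobulin joining chain of plasma cells, had 7.51, 7.70 and 7.46 on the OVE-D6 arrays and 8.56, 8.41 and 8.44 on the FVB arrays, a difference of -0.92 ± 0.49 (adjusted p = 0.48), and it passed only in the fit of the 2 groups alone.

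**Figure D2:**
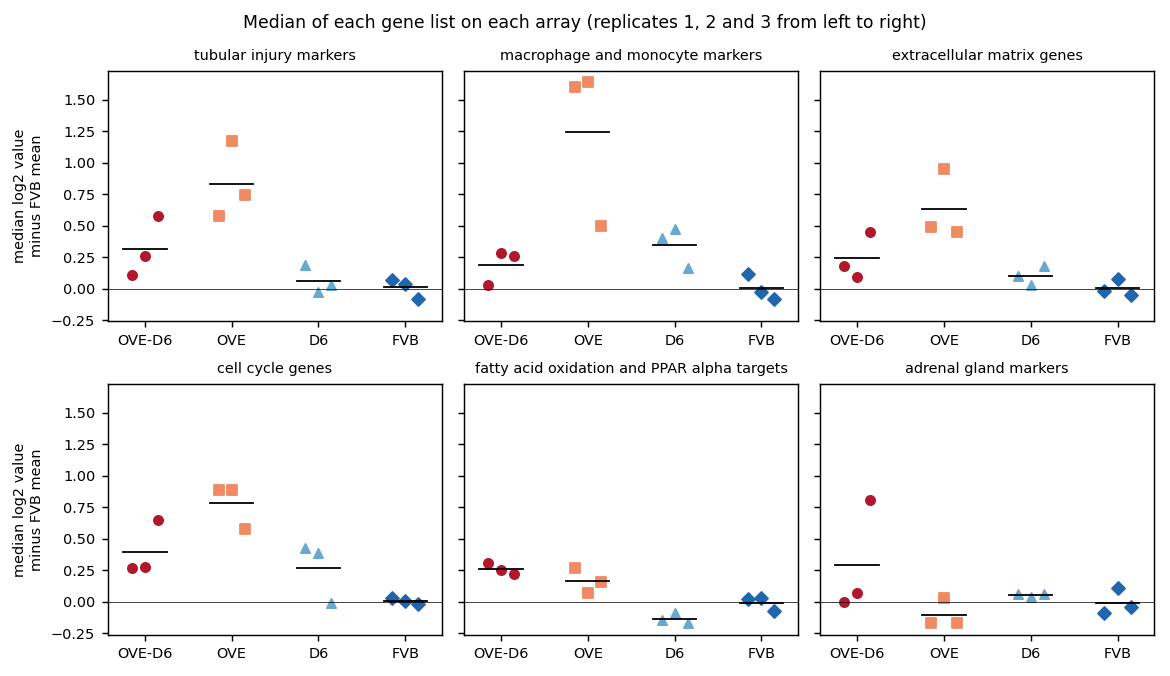
Median over a list's genes of the log2 value minus the gene's FVB mean, for each array (points, replicates 1 to 3 from left to right) and its group mean (line), for 6 gene lists. For tubular injury markers the OVE-D6 arrays were at 0.11, 0.26 and 0.58, below or level with the OVE arrays at 0.58, 1.17 and 0.74, and the adrenal list was high on OVE-D6 replicate 3 only, at 0.81.

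Respiratory chain genes had a median of 0.09 over 24 genes, beside -0.004 over all genes, 23 with positive estimates and none called, beside 0.57% of all genes. Markers of the loop and the distal nephron, 22 in all, had no call, beside the same 0.57% of all genes, and a median of -0.09. Among them Aqp4, a basolateral water channel, had 7.97, 7.97 and 7.98 on the OVE-D6 arrays and 8.62, 9.14 and 8.58 on the FVB arrays (difference -0.81 ± 0.16, adjusted p = 0.0517). Egf, secreted by the distal convoluted tubule, differed by -0.57 ± 0.12 (adjusted p = 0.0616). Neither was called, and both had OVE means (8.04 and 11.85) close to those of OVE-D6 (7.97 and 11.97). Proximal tubule transport genes had a median of 0.08 over 24 genes, podocyte markers -0.01 over 13 and endothelial markers -0.02 over 15. Nphs1, the slit diaphragm protein nephrin, had 8.27, 7.99 and 7.86 on the OVE-D6 arrays and 8.32, 8.21 and 8.34 on the FVB arrays, with a difference of -0.25 ± 0.13 (adjusted p = 0.477). Esm1, an endothelial proteoglycan gene, differed by -0.97 ± 0.25 (adjusted p = 0.118). Cholesterol and fatty acid synthesis genes had a median of -0.16 over 18 genes. Fasn, fatty acid synthase, had 9.36, 9.11 and 9.15 on the OVE-D6 arrays and 9.42, 10.17 and 10.76 on the FVB arrays, and the FVB arrays with the high values were the 2 with brown fat genes. The part of fat tissue in that difference was not tested.

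**Figure D3:**
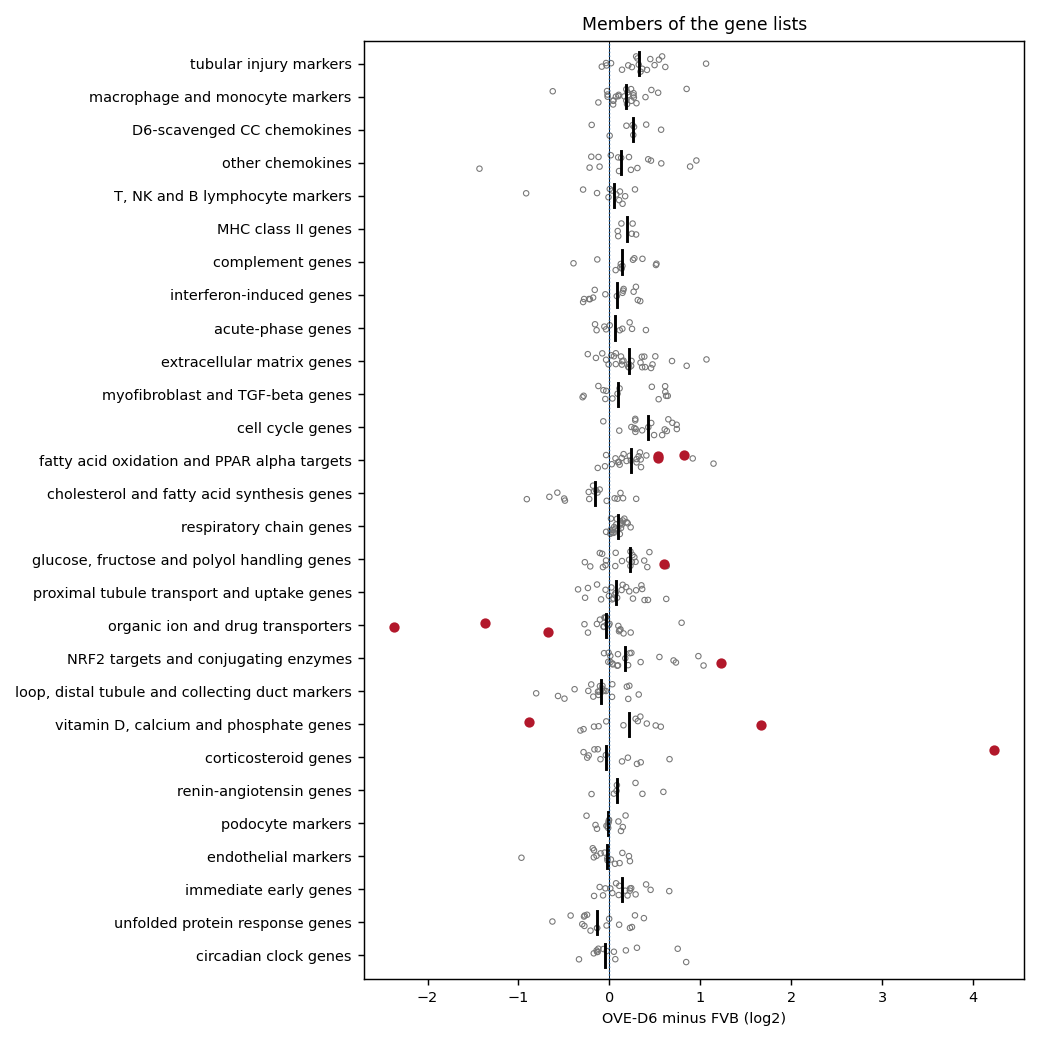
Log2 difference, OVE-D6 minus FVB, of each tested gene of 28 lists (open circles; filled red circles passed an adjusted p of 0.05), with the list's median (black bar). The called genes lie in 6 lists; the widest medians are those of cell cycle genes at 0.43 and tubular injury markers at 0.32.

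OVE and D6 arrays offered a second look at the 94 genes, because OVE minus D6 uses the 6 arrays that OVE-D6 minus FVB does not. It changes diabetes in the same direction and the D6 genotype in the opposite one. Of the 94 genes, 85 had the same sign in OVE minus D6 and 52 were called there in the same direction (55.3%), where 4.75% of all genes were called. Of those higher in OVE-D6 than in FVB, 31 of 54 were called higher in OVE than in D6 (2.85% of all genes), and of those lower, 21 of 40 were called lower (1.9% of all genes). Both comparisons draw on 1 estimate of each gene's spread, which favours genes of low spread in both. Aldh1a7 differed by 2.18 in OVE minus D6, Cyp27b1 by 1.71, Cyp4a12b by 1.64, Slc38a3 by 1.26, Casr by -0.87 and Fcamr by -1.37, and all of these were called. Serpina6 differed by 0.56 (adjusted p = 0.627) and Pigz by 0.28 (adjusted p = 0.274), far less than in OVE-D6 minus FVB, and Slc22a26 by -0.78 (adjusted p = 0.151). The count of 52 was 20 without OVE-D6 replicate 3 and 87 without OVE replicate 3.

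The other 9 genes had opposite signs, that is, the D6-/- group lay on the same side in both comparisons. Of these, 5 lay beside Ackr2 on chromosome 9, Fbxl2 and Ddx43 lay elsewhere on that chromosome, and Camk1g and Pacc1 on chromosome 1. Fbxl2, an F-box ubiquitin ligase subunit, had means of 7.80 in OVE-D6, 7.58 in OVE, 7.71 in D6 and 7.19 in FVB. Camk1g, a calmodulin-dependent kinase, had 7.22 in OVE-D6, 6.84 in OVE, 7.20 in D6 and 6.55 in FVB, and Pacc1, an acid-activated chloride channel, 9.66, 9.32, 9.46 and 9.05 in that order of groups. Ddx43 was at background in all groups (5.17 to 5.87). These 4 genes are named because of their sign, which was seen first.

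**Figure D4:**
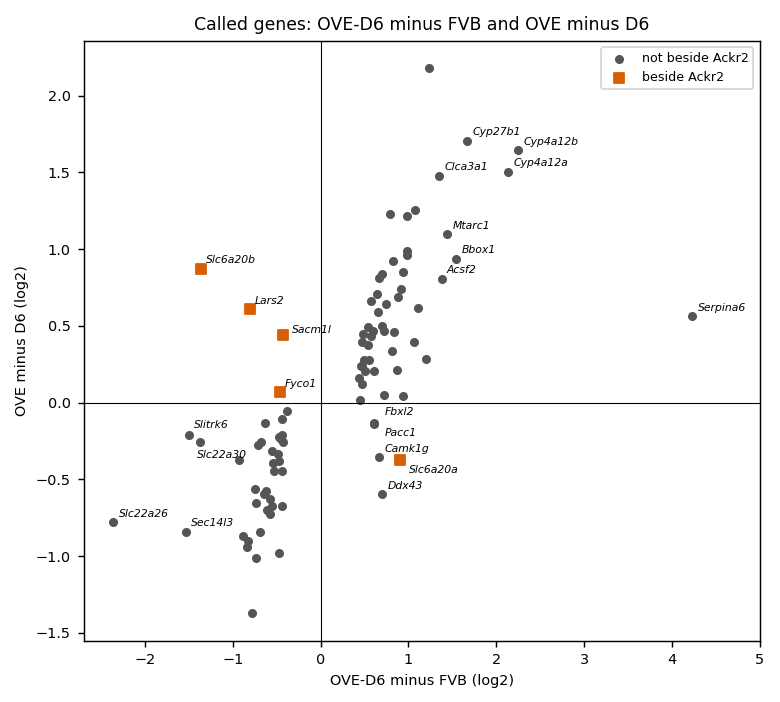
Log2 difference OVE-D6 minus FVB (horizontal axis) against OVE minus D6 (vertical axis) for the 94 genes called in OVE-D6 against FVB, with the 5 genes beside Ackr2 as orange squares. The 85 genes with the same sign lie at the lower left and upper right, and all 5 genes beside Ackr2 lie at the upper left or lower right.

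Ackr2 itself had 6.98, 6.91 and 6.88 on the OVE-D6 arrays and 6.97, 6.91 and 6.83 on the FVB arrays, a difference of 0.02 ± 0.08 (adjusted p = 0.951). Its probe set thus did not separate knockout from wild-type mice, and whether it lies in the deleted part is not given in the sources used here, so it checks nothing about the labels. Of the genes beside it, only Slc6a20b and Lars2 passed in D6 against FVB (adjusted p = 6.353e-05 and 0.00436). In OVE-D6 against FVB, of 70 tested genes beside Ackr2 (40 before it and the 30 that chromosome 9 holds after it), 5 were called, beside 0.57% of all genes and 7 of 862 on the rest of that chromosome. All 5 lay in a run between place 21 and place 27 after Ackr2. Slc6a20b, an imino acid transporter gene, had 11.13, 11.23 and 11.13 on the OVE-D6 arrays and 12.57, 12.43 and 12.59 on the FVB arrays, a 2.58-fold fall with the smallest p of the comparison (log2 -1.37 ± 0.09, adjusted p = 3.078e-05). Its D6 mean was 11.24, as low as in OVE-D6, and its OVE mean 12.12, which was also below FVB (difference -0.41, adjusted p = 0.018). Slc6a20a, the neighbouring copy, went the other way, with 10.88, 10.93 and 10.80 on the OVE-D6 arrays and 10.00, 9.94 and 9.95 on the FVB arrays. It rose by 0.91 ± 0.13 (adjusted p = 0.00642), with means of 10.53 in D6 and 10.15 in OVE. Lars2, the mitochondrial leucyl-tRNA synthetase gene, had 7.49, 7.62 and 7.69 on the OVE-D6 arrays and 8.41, 8.30 and 8.52 on the FVB arrays, a fall of 0.81 ± 0.09 (adjusted p = 0.00124), with 7.60 in D6 and 8.21 in OVE. Sacm1l, a phosphoinositide phosphatase gene, and Fyco1, an adaptor of autophagosome transport, fell by 0.43 ± 0.09 and 0.47 ± 0.09, and both calls were lost without OVE-D6 replicate 3 (adjusted p = 0.184 and 0.169). Sacm1l had means of 9.99 in OVE and 9.55 in D6, and Fyco1 had 9.14 in OVE and 9.08 in D6. Whether C57BL/6 sequence kept beside the deletion alters binding to these probe sets or the level of the RNA was not tested.

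**Figure D5:**
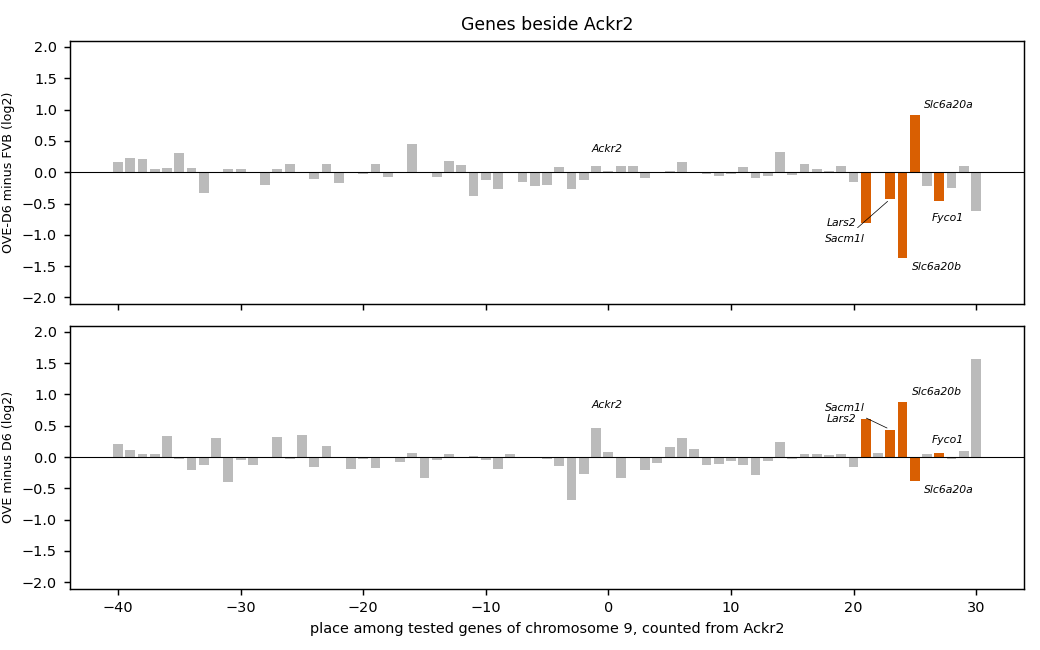
Log2 difference of the 70 tested genes beside Ackr2, by their place on chromosome 9 counted in tested genes from Ackr2, for OVE-D6 minus FVB (top) and OVE minus D6 (bottom), with the 5 called genes in orange. Slc6a20b is the lowest bar at the top (-1.37) and points up at the bottom (0.87), and Slc6a20a does the reverse (0.91 and -0.38).

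The promoters of the Slc6a20 pair are shown because these adjacent copies changed in opposite directions, and that of Bco1 because it held the only match among called genes to a nuclear receptor repeat. They are RefSeq sequences of GRCm38.p6 reaching from 250 bases before to 50 bases after the gene's start, read along the gene's strand, and 74 of the 94 called genes had one. Capitals mark GTTAAT (a part of the HNF1 motif) in Slc6a20a and AGGTCANAGGTCA (the direct repeat with 1 spacer base, bound by PPAR and other nuclear receptors) in Bco1, each searched on both strands. The Slc6a20a promoter lies at chr9:123678783-123679082 on the minus strand, that of Slc6a20b at chr9:123632489-123632788 on the minus strand and that of Bco1 at chr8:117095615-117095914 on the plus strand.
Slc6a20a: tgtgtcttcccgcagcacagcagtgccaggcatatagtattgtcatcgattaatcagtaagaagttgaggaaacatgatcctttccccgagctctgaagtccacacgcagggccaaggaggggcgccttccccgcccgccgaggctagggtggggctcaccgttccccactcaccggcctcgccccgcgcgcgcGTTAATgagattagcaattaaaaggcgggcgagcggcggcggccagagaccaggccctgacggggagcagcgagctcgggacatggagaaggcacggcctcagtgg
Slc6a20b: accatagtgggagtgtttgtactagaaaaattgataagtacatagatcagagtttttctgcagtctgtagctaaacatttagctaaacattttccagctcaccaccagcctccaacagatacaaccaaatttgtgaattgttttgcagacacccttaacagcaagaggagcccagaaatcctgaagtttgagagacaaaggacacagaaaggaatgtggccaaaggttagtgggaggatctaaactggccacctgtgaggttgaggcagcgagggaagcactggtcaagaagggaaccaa
Bco1: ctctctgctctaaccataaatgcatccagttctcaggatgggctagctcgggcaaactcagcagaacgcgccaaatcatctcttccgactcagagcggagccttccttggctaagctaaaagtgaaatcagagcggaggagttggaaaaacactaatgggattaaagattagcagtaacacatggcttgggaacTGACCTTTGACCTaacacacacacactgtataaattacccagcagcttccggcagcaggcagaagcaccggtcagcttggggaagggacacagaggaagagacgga
GTTAAT stood once in the Slc6a20a promoter, 56 bases before the start, and not in this window of Slc6a20b. It was found in 7 of 40 promoters of genes that rose (17.5%) and 3 of 34 of genes that fell (8.82%), beside 8.24% of 27025 genes with a promoter and 5.99% of the 12971 that were tested. AGGTCANAGGTCA was found in 13 of the 27025 genes (0.0481%) and in 1 of the 40 that rose, Bco1, on the opposite strand. Bco1, which cleaves beta-carotene to retinal, rose by 0.83 on the log2 scale, with means of 7.92 in OVE-D6, 7.64 in OVE, 7.18 in D6 and 7.09 in FVB. A match is a stretch of letters and was not tested as a binding site.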

How the data were processed

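The authors deposited log2 probe-set summaries of Affymetrix arrays, 1 array per mouse. Per the labels' protocols, whole-kidney RNA (100 ng, integrity above 8.8, on average 9.1) was made into labelled sense-strand cDNA. The normalisation is not given in the sources used here. Array medians lay close together, so values were used as deposited, and the number of arrays limits the precision. Of 35556 probe sets, 21789 had 1 gene symbol, 1621 several and 12146 none in the annotation used. Names were updated through the GRCm38.p6 gene table (21698 by Entrez identifier, 3 by accession, 88 kept), and for 1001 genes with several probe sets the one with the highest mean was taken. A gene was tested if it exceeded the 25th percentile of the array on 3 arrays or more.

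OVE-D6 minus FVB was tested in limma 3.58.1 (R 4.3.3) with lmFit over all 12 arrays, 1 mean per group, eBayes and Benjamini-Hochberg adjustment over all genes at 0.05; all adjusted p-values are limma's. OVE minus D6 was added after seeing the data. Samples were grouped by source name. Where nothing more is known of the mice, p-values measure the spread between these samples.

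The text names Ackr2, the 12 largest rises and 12 largest falls among called genes whose groups did not overlap (predicted and unnamed genes left out), up to 4 called members of each list or its 2 largest differences as not passing, the D6-scavenged chemokines, called genes beside Ackr2, check genes as levels, and 15 genes chosen because earlier results were known. The members, the 35 lists and the tests were chosen with earlier results of these data known. Alternatives changed the filter, normalisation, probe set, variance model, arrays and threshold. The fit was tested on simulated data, and figures used Python 3.11.15, pandas 2.3.3 and matplotlib 3.10.9.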

Additional observations from a re-analysis of the deposited data

How the results depend on the processing

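The count of 94 genes (54 higher, 40 lower) ran from 30 to 147 when 1 array was left out, with 19 to 87 higher and 11 to 60 lower, and the 52 genes also called in OVE against D6 ran from 20 to 87. Other settings that moved a count by over 1.5 times were these. An intensity trend in the variance gave 161 (88 higher, 73 lower, 79 also in OVE against D6), and array weights gave 272 (151, 121 and 107). A filter at the 50th percentile gave 63 lower of 130. An adjusted p of 0.01 gave 29 (19 higher, 10 lower), one of 0.1 gave 285 (159 and 126), and a minimum of 1.5-fold gave 61, with 21 lower. Chosen after seeing the data, a fit with no OVE arrays gave 180 (110 and 70), and leaving out OVE-D6 replicate 3 and FVB replicate 2 together gave 19 (14 higher, 5 lower, 11 also in OVE against D6). The thresholds act by construction. Leaving out arrays moved the count both ways, to 30 without OVE-D6 replicate 3 and to 147 without OVE replicate 3. For arrays, genes and the other settings the cause was not tested. No filter (77), quantile normalisation (97), median centring (87), the mean of a gene's probe sets (93), the most variable probe set (104), robust eBayes (97), OVE-D6 and FVB arrays alone (129) and leaving out the genes beside Ackr2 (88) moved the total less. The replicate number as a block gave 63 calls, 23 of them lower, and 56 of the 94. Deviations from the group means of same-numbered OVE-D6 and FVB arrays correlated at -0.248, -0.23 and -0.026. Because the deviations of 3 arrays sum to 0 in each group, these values cannot tell whether the numbers mark a shared batch. Under 13 alternatives that keep single arrays in, the 32 called genes that the naming rule picked gave 412 values, 366 with the same sign and call, 46 with the same sign and no call, and 0 of opposite sign. Leaving out 1 array reversed the sign of 3 differences that were not called. These were Ackr2 (-0.0098 and -0.015), Ccl4 (-0.0431, -0.0441 and -0.0301) and Col1a1 (-0.0391). Their ranges were -0.015 to 0.0526, -0.0441 to 0.083 and -0.0391 to 0.364. Ackr2 and Ccl4 were near 0 throughout, while Col1a1 was not and reversed only without OVE-D6 replicate 3. With the filter at the 50th percentile the medians were 0.405 for D6-scavenged chemokines, 0.215 for other chemokines and 0.259 for complement genes. They were -0.15 for lymphocyte markers and -0.008 for kidney genes expressed more in males. The corticosteroid list ran from -0.094 without OVE-D6 replicate 3 to 0.214 without FVB replicate 2. Among the 189 injury, immune, matrix and cell cycle genes, the alternatives called 0 to 6. Dim signal limits 14 of the 94 genes, and 3 of them (Chl1, Ddx43 and Sv2c) had both group means under the background level.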

Other observations

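The other 62 called genes (37 higher, 25 lower) fell outside the rule for named genes, and those below were chosen after their values were seen. Gpt, alanine aminotransferase, averaged 8.11 in OVE-D6 and 7.20 in FVB. Ftcd, which breaks down histidine, averaged 8.11 in OVE-D6 and 7.30 in FVB. Agmat, agmatinase, went down, with 8.33 in OVE-D6 and 9.08 in FVB, and was also called lower in OVE than in D6 (log2 difference -1.01). Stra6, the receptor for retinol-binding protein, averaged 8.96 in OVE-D6, 8.46 in OVE, 8.41 in D6 and 8.02 in FVB. Apom, a lipocalin of high-density lipoprotein, averaged 7.93 in OVE-D6 and 8.50 in FVB. Reep6, an endoplasmic reticulum protein gene, averaged 12.08 in OVE-D6, 12.09 in OVE, 11.11 in D6 and 11.10 in FVB, an even split by diabetes (difference 0.98, adjusted p = 0.00111).

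Sulf2, which trims heparan sulfate, averaged 9.17 in OVE-D6 and 8.47 in FVB, and Masp1, a protease of the lectin complement pathway, 7.25 in OVE-D6 and 6.32 in FVB. Npr3, the natriuretic peptide clearance receptor, averaged 8.43 in OVE-D6 and 9.05 in FVB, and Sfrp2, a secreted Wnt antagonist, 8.79 in OVE-D6 and 9.48 in FVB. Mt1, a metallothionein, averaged 10.98 in OVE-D6 and 10.34 in FVB. Eda2r, a receptor of the TNF receptor family, averaged 6.22 in OVE-D6, 6.72 in OVE, 5.49 in D6 and 5.43 in FVB, with both non-diabetic means at background.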
